A study of Arabidopsis thaliana with 12 samples.

Results

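The UDP-glycosyltransferases (UGTs) of *Arabidopsis thaliana* were followed on Affymetrix arrays of whole seedlings. Members were the probe sets listed with exactly 1 gene whose current symbol begins with UGT and a number, which gave 47 of the 22810 probe sets on the array, 1 probe set for each of 47 genes in 11 numbered families. The array has a probe set of their own for 13286 genes of the gene table. The gene table holds 58 genes with such symbols. Of the other 11, *UGT73B2*, *UGT73B3*, *UGT71D1* and *UGT89B1* share 3 probe sets listed with several genes, and *UGT75B1*, *UGT75B2*, *UGT74E2*, *UGT74F2*, *UGT73C6*, *UGT84A2* and *UGT85A1* were not analysed here.

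The 4 groups, of 3 arrays each, were arf2-6_IAA, WT_IAA, arf2-6_control and WT_control. The arf2-6 line carries a mutation of the auxin response factor gene *ARF2* in the Columbia background, and WT is wild-type Columbia. All seedlings were grown to 7 days in liquid culture, shaken, with 1.5% sucrose and a day of 16 h light and 8 h dark. For the last 2 h, at 24 °C, the IAA groups had 5 µM of the auxin indole-3-acetic acid (IAA) in the medium and the control groups its solvent ethanol. Whether the 3 arrays of a group came from separate cultures is not in the labels, and the p-values therefore rest on a spread that may be technical only. The values are log2 signals, with a lowest deposited value of 5.64 that corresponds to a signal of 50. A probe set at that value has only an upper bound, and a difference from a group held there is written as "at least". Arrays held at that value show no spread, so an SE or p-value that rests on them can be too small. Array medians lay between 6.16 and 6.22 log2. The number of arrays limits the precision, and in whole seedlings a smaller share of a cell type and less transcript per cell cannot be told apart. The 3 leaf markers (*RCA*, *LHCB4.1*, *LHCB4.2*) and the 3 root markers (*EXPA7*, *EXPA18*, *PYK10*) gave signals above the lowest value on every array, apart from *EXPA18* on arf2-6_IAA 1.

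Plant UGTs transfer a sugar from a UDP-sugar, most often glucose, to small molecules such as hormones, phenylpropanoids, flavonoids and glucosinolate precursors. The attached sugar usually makes the acceptor more water-soluble, changes its activity and prepares it for storage in the vacuole. Glucose esters and N-glucosides are known routes by which auxin, cytokinin, abscisic acid and salicylic acid are withdrawn from signalling, and β-glucosidases can release some of these conjugates again. Numbered families are defined by protein sequence, and many members lie in tandem beside close relatives.

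Of the 47 UGT probe sets, 19 lay at 5.64 log2 on all 12 arrays (40.4%), beside 37.5% of all probe sets other than the AFFX controls and 43.5% of those listed with a single gene. The families differed in how many members gave a signal. Family 73 had 5 of 7 at the lowest value throughout (*UGT73B4*, *UGT73C1*, *UGT73C2*, *UGT73C7* and *UGT73D1*). Families 84 and 85 had 3 of 5 each (*UGT84A1*, *UGT84B1*, *UGT84B2*, and *UGT85A3*, *UGT85A5*, *UGT85A7*). Family 71 had 3 of 9 (*UGT71B5*, *UGT71B6*, *UGT71B8*) and family 76 had 3 of 8 (*UGT76E1*, *UGT76E2*, *UGT76E12*). *UGT72B3* and *UGT78D3* were at the lowest value throughout as well. The 3 members of family 74 and the 1 member each of families 80, 87 and 88 were above it on every array.

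The members held at the lowest value include genes with known hormone substrates. *UGT84B1* encodes an enzyme that makes the glucose ester of IAA, *UGT71B6* one that glucosylates abscisic acid, and *UGT76E1* one that acts on hydroxylated jasmonate. No difference between groups could be measured for them.

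A further 6 members lay at 5.64 log2 on all arrays of 1 to 3 groups. *UGT71C2* and *UGT71C3* were there in arf2-6_IAA and arf2-6_control, and above it on 2 and 1 of the 3 WT_control arrays and on 2 of the 3 WT_IAA arrays each. *UGT84A3* was at the lowest value in the same pair of mutant groups. *UGT76D1* was there in arf2-6_control and WT_control, and so was *UGT73B5*. *UGT72E3* was there in arf2-6_IAA, WT_IAA and arf2-6_control, and on 1 of 3 WT_control arrays. In all, 28 members were above the lowest value on at least 1 array, and 17 on every array. Only those 28 could be tested.

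**Figure D1:**
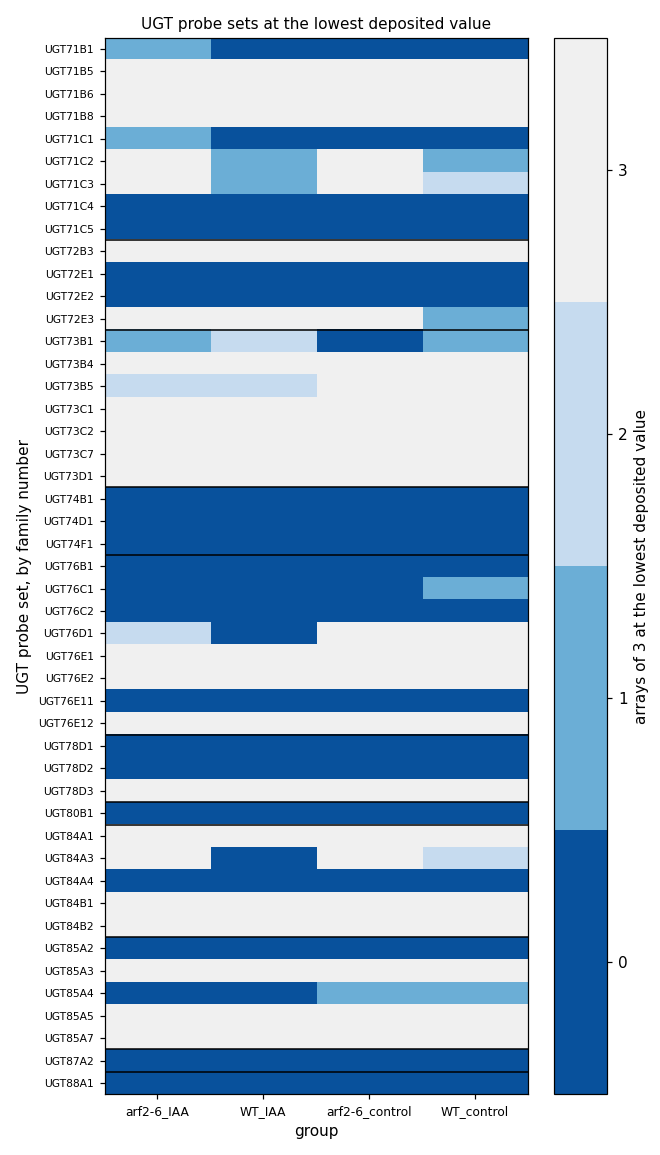
The number of arrays (0 to 3) at the lowest deposited value is shown by colour for each of the 47 UGT probe sets (rows, by family, with lines between families) in the 4 groups (columns). Pale rows are the 19 members at 5.64 log2 on all 12 arrays, and *UGT76D1* and *UGT84A3* are the members with 0 arrays there in WT_IAA and 2 or 3 in every other group.

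Many members neighbour each other in the genome. In the gene order of assembly TAIR10.1, 13 runs of UGT members with at most 2 other coding genes between neighbours held 31 of the 47. All genes of a run were at the lowest value throughout in 4 runs (*UGT84B2* and *UGT84B1*, *UGT73C1* and *UGT73C2*, *UGT73D1* and *UGT73C7*, *UGT76E1* and *UGT76E2*). In 3 runs every gene gave a signal on some array, and 6 were mixed. In the run of *UGT85A7*, *UGT85A2*, *UGT85A5* and *UGT85A3*, *UGT85A2* alone rose above the lowest value. All 47 probe set names end in _at with no further letter, the form used for probe sets not designed to be shared between transcripts, but cross-hybridisation between near-identical copies was not tested.

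Each difference was tested with limma over 14215 probe sets at once, and called at a Benjamini-Hochberg adjusted p under 0.05. With IAA in arf2-6, 3 UGT members were called, beside 8.51% of all probe sets tested. *UGT87A2* was higher (3.75% of all were), and *UGT74B1* and *UGT78D1* were lower (4.76% of all). With IAA in the wild type, 4 were called, beside 8.4% of all. Of these, 3 were higher (*UGT76D1*, *UGT84A3*, *UGT87A2*; 4.64% of all were higher) and 1 was lower (*UGT74B1*; 3.76% of all). As shares of the 28 tested members the called ones were 10.7% in arf2-6 and 14.3% in the wild type. The background shares correspond to between 2 and 3 of 28 members. The median difference over the tested members was -0.02 log2 in arf2-6 and 0.01 in the wild type. Over all probe sets tested it was -0.02 log2 in arf2-6 and 0.00 in the wild type. In arf2-6 2 members differed at least 2-fold (*UGT78D1*, and *UGT71C1*, which was not called), and in the wild type 0 did.

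Between the genotypes, 0 members were called without IAA by limma, 6 had an unadjusted p under 0.05, and 0.858% of all probe sets were called. With IAA 4 members were called, beside 8.79% of all. *UGT76C2* was higher in arf2-6 (2.93% of all were), and *UGT74B1*, *UGT76D1* and *UGT84A3* were lower (5.86% of all). Averaged over both treatments 5 were called, the same 4 and *UGT84A4*, beside 15.9% of all. Of these 1 was higher (7.15% of all) and 4 were lower (8.72% of all). The interaction subtracts the wild-type IAA effect from the mutant one. It was called for 1 member (*UGT76D1*, below 0), beside 0.113% of all, with 0.0985% below 0 and 0.0141% above. With IAA, 22 of the 28 tested members had a lower mean in the mutant (78.6%), where 47.8% of all probe sets did, and the median difference was -0.19 log2 for the members and 0.00 for all. These shares and medians describe the members that passed the filter and are no test. *UGT71C2*, *UGT71C3* and *UGT84A3* were at the lowest value on all mutant arrays and passed the filter through wild-type arrays only. They could not have a higher mean in the mutant, and *UGT76D1* passed almost only through WT_IAA. With no filter, the same 22 members were lower with IAA, out of 47 (46.8%), beside 29.9% of all probe sets. The filter removed only probe sets at the lowest value throughout, whose difference is 0 by construction. The unfiltered count is therefore no separate check. In control seedlings 15 of 28 were lower in arf2-6 (53.6%), beside 44.6% of all probe sets. The median there was -0.01 log2 for the members and 0.01 for all. *UGT72E3*, at the lowest value throughout arf2-6_control, could not have a higher mean in the mutant there either.

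**Figure D2:**
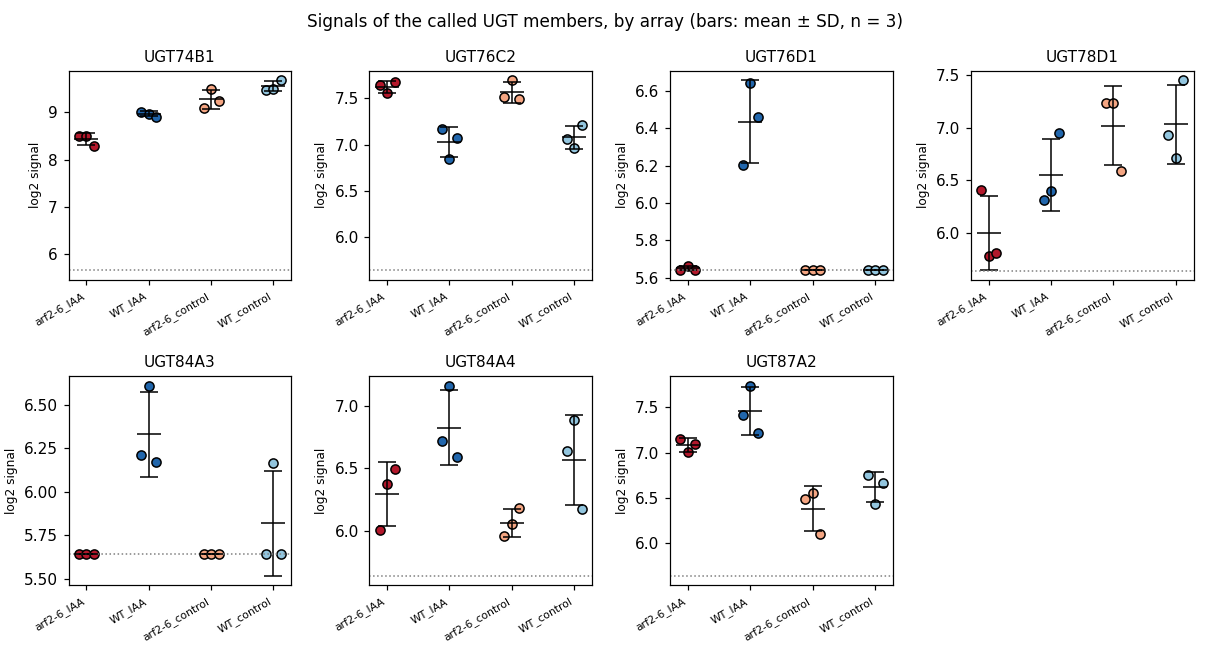
Log2 signal on each array (points) with mean ± SD (n = 3) for the 7 UGT members called in at least 1 comparison, by group. The dotted line is the lowest deposited value of 5.64 log2. The 3 WT_IAA points of *UGT76D1* lie at 6.20 to 6.64, while the other 9 points lie between 5.64 and 5.66.

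*UGT74B1* encodes the S-glucosyltransferase of glucosinolate synthesis, which adds glucose to thiohydroximates. It measured 8.50, 8.51 and 8.29 log2 on the arf2-6_IAA arrays and 9.02, 8.98 and 8.91 on the WT_IAA arrays. It measured 9.10, 9.50 and 9.25 in arf2-6_control and 9.49, 9.50 and 9.68 in WT_control. In both genotypes all IAA arrays lay below all control arrays, and with IAA all mutant arrays lay below all wild-type arrays. In controls the 2 genotypes overlapped.

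With IAA, *UGT74B1* fell 1.80-fold in arf2-6 (log2 -0.85, SE 0.11, adjusted p = 0.00054) and 1.50-fold in the wild type (log2 -0.59, SE 0.11, adjusted p = 0.0057). With IAA the mutant level was lower by a factor of 1.45 (log2 -0.54, SE 0.11, adjusted p = 0.015). In controls the difference was -0.27 log2 (95% interval -0.52 to -0.03, adjusted p = 0.27). Averaged over treatments it was -0.41 log2 (adjusted p = 0.0068). The IAA effects of the 2 genotypes differed by -0.26 log2 (SE 0.16, adjusted p = 1), which was not called. The call between genotypes with IAA ended without WT_IAA 2 (adjusted p = 0.064) or arf2-6_IAA 3 (0.072).

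*UGT87A2*, whose product is known to influence flowering time, was the member called as higher with IAA in both genotypes. It measured 7.15, 7.00 and 7.10 log2 in arf2-6_IAA and 7.42, 7.74 and 7.22 in WT_IAA. The controls measured 6.49, 6.55 and 6.10 in arf2-6_control and 6.76, 6.44 and 6.67 in WT_control. The IAA arrays lay above the control arrays in each genotype with no overlap.

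The rise of *UGT87A2* was 1.63-fold in arf2-6 (log2 0.70, SE 0.16, adjusted p = 0.018) and 1.79-fold in the wild type (log2 0.84, SE 0.16, adjusted p = 0.0064). The interaction was -0.14 log2 (95% interval -0.64 to 0.36). Genotype differences were -0.38 log2 with IAA (adjusted p = 0.18) and -0.24 in controls (adjusted p = 0.55). In arf2-6 the call ended without arf2-6_control 3 (adjusted p = 0.072), arf2-6_IAA 1 (0.068) or arf2-6_IAA 3 (0.068), and with no filter on dim probe sets (0.057).

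*UGT76D1*, which encodes a glucosyltransferase of dihydroxybenzoic acids, the hydroxylated products of salicylic acid, gave a clear signal in WT_IAA alone. It measured 5.64, 5.66 and 5.64 log2 in arf2-6_IAA and 6.20, 6.64 and 6.46 in WT_IAA. All 3 arrays of arf2-6_control and all 3 of WT_control were at the lowest value. With IAA it rose at least 1.73-fold in the wild type (log2 0.79, SE 0.09, adjusted p = 0.00012), and the fitted difference in arf2-6 was 0.01 log2 (adjusted p = 1). Under IAA its level in the mutant was at least 1.72-fold below the wild type (log2 -0.78, SE 0.09, adjusted p = 0.00096). These SEs and p-values draw on groups held at the lowest value and can be too small. WT_IAA itself had an SD of 0.22 log2. With the 2 wild-type groups alone, the limma adjusted p for IAA was 0.0088.

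The interaction for *UGT76D1* was -0.78 log2 (SE 0.12, adjusted p = 0.043). This is a fitted value and not an exact size, because both control groups have only upper bounds. The IAA change in the mutant is therefore unknown, and the direction of the interaction was not measured either. Its SE and p-value draw on the same held values. The interaction lost its call under 17 of its 18 alternatives, at adjusted p from 0.050 to 0.19 (0.17 without arf2-6_IAA 1), and remained called without WT_IAA 1 (0.0031). The IAA call in the wild type and the genotype call with IAA held under all 19 alternatives run for each. WT_control was at the lowest value and arf2-6_IAA at or near it, so these alternatives were a weak check of both calls. The fit with the stricter filter on dim probe sets did not test *UGT76D1* and is not among the 19.

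Family 84 members of the A group make glucose esters of hydroxycinnamates such as sinapate and ferulate. *UGT84A3* was at 5.64 log2 on all 3 arf2-6_IAA arrays and measured 6.21, 6.61 and 6.17 on the WT_IAA arrays. It was at 5.64 on all 3 arf2-6_control arrays, and on WT_control at 5.64, 6.16 and 5.64. All 6 mutant arrays were thus at the lowest value, and 4 of the 6 wild-type arrays were above it.

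With IAA, *UGT84A3* in the mutant was at least 1.61-fold below the wild type (log2 -0.69, SE 0.14, adjusted p = 0.015). The averaged genotype difference was -0.43 log2 (fitted, adjusted p = 0.015). Both mutant groups had no spread at the lowest value, so these SEs and p-values can be too small. With IAA in the wild type the fitted rise was 0.51 log2 (SE 0.14, adjusted p = 0.045), not an exact size because 2 of the 3 WT_control arrays have only an upper bound, with the lowest WT_IAA array at 6.17 and the highest WT_control array at 6.16. That call ended under 16 of 19 alternatives, with adjusted p up to 0.19. The genotype call with IAA ended without WT_IAA 2 (adjusted p = 0.060), arf2-6_IAA 1 (0.052) or arf2-6_IAA 3 (0.059).

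*UGT84A4*, its neighbour in the genome, measured 6.01, 6.38 and 6.50 log2 in arf2-6_IAA and 6.72, 7.16 and 6.59 in WT_IAA. In controls it measured 5.96, 6.06 and 6.18 in arf2-6_control and 6.64, 6.89 and 6.18 in WT_control. With IAA the mutant arrays lay below the wild-type arrays, and in controls the nearest values of the genotypes were both 6.18 log2 when rounded. Averaged over treatments it was 1.43-fold lower in arf2-6 (log2 -0.52, SE 0.14, adjusted p = 0.030). The separate differences were -0.53 log2 with IAA (adjusted p = 0.13) and -0.50 in controls (adjusted p = 0.26). Its averaged call ended under 6 of 19 alternatives, 5 of them the loss of 1 array (WT_control 1 or 2, WT_IAA 2, arf2-6_control 1 or arf2-6_IAA 1, adjusted p from 0.058 to 0.076) and 1 the fit with no filter (0.086). The remaining gene of that run, *UGT84A1*, was at the lowest value throughout.

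*UGT76C2* and its neighbour *UGT76C1* encode cytokinin N-glucosyltransferases. *UGT76C2* measured 7.64, 7.55 and 7.67 log2 in arf2-6_IAA and 7.16, 6.85 and 7.07 in WT_IAA. It measured 7.51, 7.69 and 7.49 in arf2-6_control and 7.06, 6.96 and 7.21 in WT_control. All 6 mutant arrays lay above all 6 wild-type arrays. It was the 1 called member of the family that was higher in the mutant.

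The difference for *UGT76C2* was 1.46-fold averaged over treatments (log2 0.54, SE 0.08, adjusted p = 0.0024) and 1.51-fold with IAA (log2 0.60, SE 0.12, adjusted p = 0.013). In controls it was 0.49 log2 (95% interval 0.23 to 0.75, adjusted p = 0.080). IAA itself gave 0.06 log2 in arf2-6 (95% interval -0.20 to 0.32) and -0.05 in the wild type (95% interval -0.31 to 0.21). *UGT76C1* lay between 5.75 and 6.20 log2 in arf2-6_IAA and between 5.83 and 6.01 in WT_IAA. Its averaged genotype difference was a fitted 0.08 log2 (adjusted p = 0.63), with WT_control 2 at the lowest value. The call for *UGT76C2* with IAA ended without WT_IAA 2 (adjusted p = 0.065), arf2-6_IAA 1 (0.050) or arf2-6_IAA 3 (0.061), and the averaged call held under all 19 alternatives.

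Family 78 holds flavonoid glycosyltransferases. *UGT78D1*, which attaches rhamnose to flavonols, measured 6.41, 5.78 and 5.81 log2 in arf2-6_IAA and 6.31, 6.40 and 6.94 in WT_IAA. In controls it measured 7.23, 7.24 and 6.59 in arf2-6_control and 6.93, 6.72 and 7.45 in WT_control. The arf2-6_IAA arrays lay below the arf2-6_control arrays, while the wild-type groups overlapped.

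With IAA *UGT78D1* fell 2.02-fold in arf2-6 (log2 -1.02, SE 0.26, adjusted p = 0.033). In the wild type the difference was -0.48 log2 (95% interval -1.05 to 0.09, adjusted p = 0.39), and the interaction was -0.54 log2 (SE 0.37, adjusted p = 1), so the 2 effects were not shown to differ. The call in arf2-6 ended without arf2-6_control 1 (adjusted p = 0.11), arf2-6_control 2 (0.11), arf2-6_IAA 2 (0.13) or arf2-6_IAA 3 (0.14), and with no filter on dim probe sets (0.11). *UGT78D2*, the flavonoid 3-O-glucosyltransferase, measured -0.46 log2 with IAA in arf2-6 (adjusted p = 0.15) and -0.21 in the wild type (adjusted p = 0.61). *UGT78D3*, which attaches arabinose, was at the lowest value throughout.

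**Figure D3:**
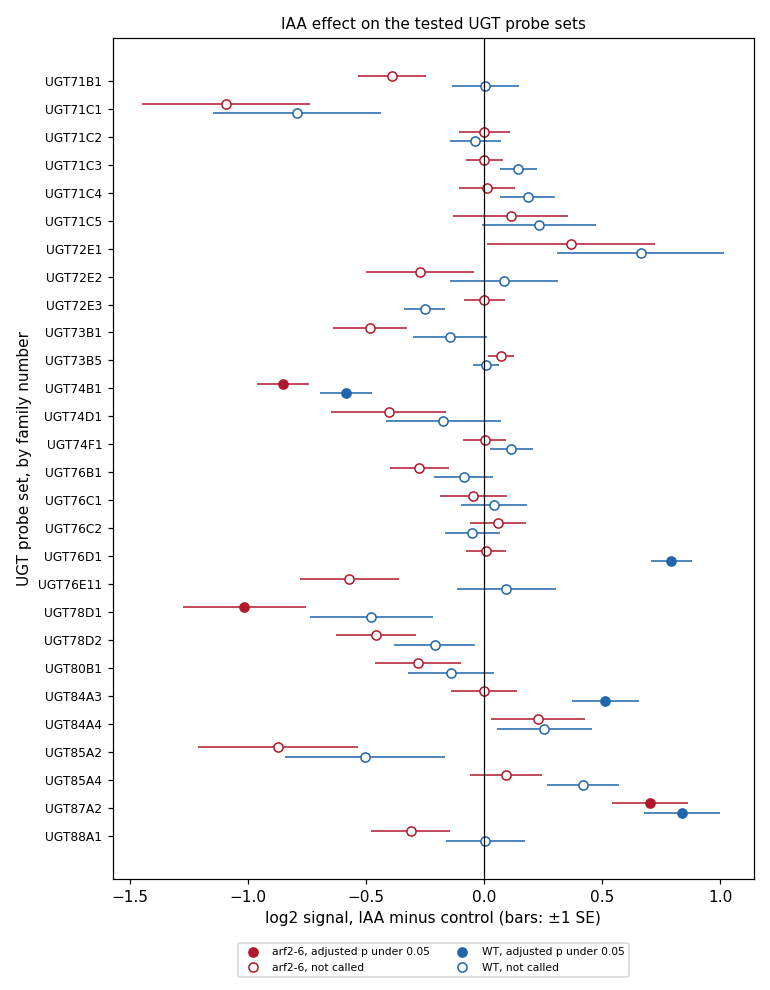
IAA minus control difference in log2 signal (x axis, bars ±1 SE) for the 28 tested UGT probe sets (y axis, by family), in arf2-6 (red) and the wild type (blue). Filled points passed an adjusted p of 0.05, and points at 0 for *UGT71C2*, *UGT71C3*, *UGT72E3* and *UGT84A3* in arf2-6 have both groups at the lowest value. *UGT74B1* lies to the left and *UGT87A2* to the right of 0 in both genotypes.

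The other tested members with known hormone substrates were not called in any comparison. *UGT74D1*, which acts on the oxidised auxin oxIAA, differed with IAA by -0.41 log2 in arf2-6 (SE 0.24, adjusted p = 0.42) and -0.17 in the wild type (SE 0.24, adjusted p = 0.80). *UGT74F1*, a salicylic acid glucosyltransferase, measured 0.00 log2 in arf2-6 and 0.11 in the wild type with IAA. *UGT76B1*, which glucosylates salicylic acid, N-hydroxypipecolic acid and isoleucic acid, measured -0.28 log2 in arf2-6 and -0.09 in the wild type. *UGT71C5*, an abscisic acid glucosyltransferase, measured 0.11 log2 in arf2-6 (adjusted p = 0.86) and 0.23 in the wild type (adjusted p = 0.72). All 4 genes were above the lowest value on every array.

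Family 72 members of the E group are monolignol glucosyltransferases. *UGT72E1* measured 8.12, 8.38 and 8.19 log2 in arf2-6_IAA and 8.62, 8.70 and 8.65 in WT_IAA. In controls it measured 8.29, 6.93 and 8.38 in arf2-6_control and 8.42, 8.23 and 7.33 in WT_control, so that 1 array of each control group lay well below the rest. *UGT72E2* measured 7.64, 7.53 and 7.91 in arf2-6_IAA and 8.23, 8.35 and 8.12 in WT_IAA. With IAA both genes were lower on every mutant array than on any wild-type array, and so were other uncalled members such as *UGT71C4* and *UGT76B1*. The share of all probe sets that separate in this way is not given here. The differences were -0.42 log2 for *UGT72E1* (adjusted p = 0.51) and -0.54 for *UGT72E2* (adjusted p = 0.18), and neither was called.

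*UGT71C1*, of a group that glucosylates hydroxycinnamates and flavonoids in vitro, had the largest uncalled differences among the members in both IAA comparisons and in all 3 genotype comparisons. It measured 5.77, 5.87 and 5.64 log2 in arf2-6_IAA and 6.55, 7.10 and 6.37 in WT_IAA. The controls measured 6.95, 6.41 and 7.21 in arf2-6_control and 8.05, 7.84 and 6.52 in WT_control. With IAA it measured a fitted -1.09 log2 in arf2-6 (SE 0.35, adjusted p = 0.092) and -0.79 in the wild type (SE 0.35, adjusted p = 0.26). Between genotypes it measured a fitted -0.92 log2 with IAA (adjusted p = 0.14) and -0.62 in controls (adjusted p = 0.47). The fitted values are not exact sizes, because arf2-6_IAA 3 was at the lowest value.

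The array pair behind the wide control spread was the same for several members. On WT_control 3 and on arf2-6_control 2 alike, 8 members were the lowest of their group (*UGT71C1*, *UGT71C5*, *UGT72E1*, *UGT72E2*, *UGT74D1*, *UGT85A2*, *UGT85A4* and *UGT88A1*) and 5 the highest (*UGT74B1*, *UGT74F1*, *UGT76C1*, *UGT76C2* and *UGT78D1*). Across all tested probe sets these 2 arrays deviated from their group means together (r = 0.633, across probe sets, which are not independent replicates). *UGT85A2*, for example, measured 8.28, 7.25 and 8.29 log2 in arf2-6_control and 8.19, 8.23 and 7.18 in WT_control, against 7.17, 7.08 and 6.94 in arf2-6_IAA and 7.46, 7.73 and 6.90 in WT_IAA.

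Without those 2 arrays, *UGT71C1* was called lower with IAA in arf2-6 (fitted log2 -1.32, SE 0.20, adjusted p = 0.0027) and in the wild type (-1.27, SE 0.20, adjusted p = 0.0030). *UGT85A2* was called lower with IAA in arf2-6 (-1.22, SE 0.20, adjusted p = 0.0044) and in the wild type (-0.85, SE 0.20, adjusted p = 0.028). The 2 arrays were picked from these same data, and both genes were among the 8 lowest of their group on both. Leaving the arrays out therefore raised their control means and narrowed their spread by construction. These calls are not used as support. The count for IAA became 4 of 28 in arf2-6, beside 8.73% of all probe sets tested in that fit, and 6 in the wild type, beside 8.83%, and *UGT78D1* (adjusted p = 0.063) and *UGT84A3* (0.15) were no longer called there. With IAA 8 members were then called between the genotypes, the 4 named above and *UGT71B1*, *UGT71C1*, *UGT72E1* and *UGT72E2*, all 4 lower in arf2-6. *UGT71C1*, *UGT72E1* and *UGT72E2* were lowest of their group on both left-out arrays, so their calls are not used as support either. Of all probe sets 15.4% were called in that fit, so the share rose for all probe sets as well as for the members. In controls the 1 call, beside 5.06% of all probe sets, was *UGT72E3*, at the lowest value throughout the other 3 groups. WT_control 3 was its one WT_control array at that value, so leaving it out removes most of its spread, and no difference is read from this call or from its call with IAA in the wild type. The differences between the IAA groups are the same with and without those control arrays. Their estimated error is not, and the SE for *UGT72E1*, for example, was 0.091 without them and 0.355 with them.

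**Figure D4:**
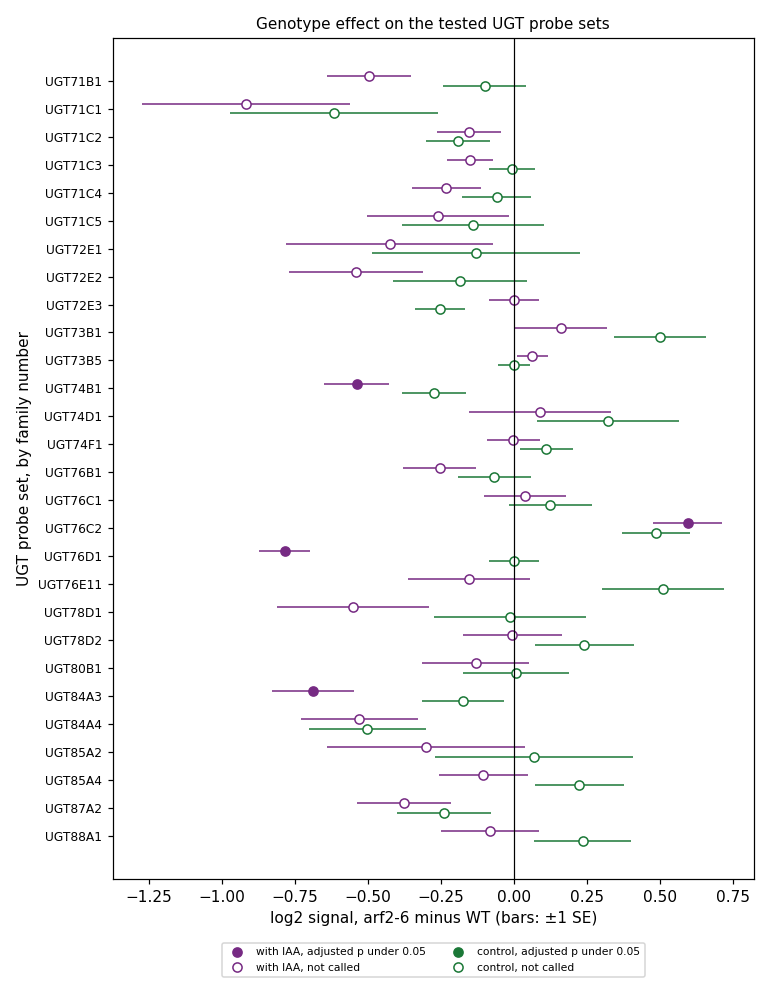
Difference in log2 signal between arf2-6 and the wild type (x axis, bars ±1 SE) for the 28 tested UGT probe sets (y axis, by family), with IAA (purple) and in controls (green). Filled points passed an adjusted p of 0.05. With IAA 22 of 28 points lie left of 0, and *UGT76C2* is the 1 filled point to the right. *UGT71C2*, *UGT71C3* and *UGT84A3*, at the lowest value on all mutant arrays, could not lie to the right.

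The remaining members of families 71, 73, 76, 80, 85 and 88 were measured with no call. Over all 28 tested members the uncalled differences ranged from -1.09 to 0.37 log2 for IAA in arf2-6 and from -0.79 to 0.66 in the wild type. In the same way they ranged from -0.92 to 0.16 log2 between genotypes with IAA and from -0.62 to 0.51 in controls. *UGT71B1* measured 5.81, 5.79 and 5.64 log2 in arf2-6_IAA and 6.10, 6.60 and 6.03 in WT_IAA, a difference of -0.50 log2 (SE 0.14, adjusted p = 0.055) with no overlap. *UGT73B1* was on average 0.50 log2 higher in arf2-6_control than in WT_control (SE 0.16, adjusted p = 0.16), and its arrays overlapped. *UGT85A4* differed with IAA by 0.09 log2 in arf2-6 and 0.42 in the wild type (adjusted p = 0.14), and *UGT71C4* by 0.01 in arf2-6 and 0.18 in the wild type. *UGT80B1*, a sterol glucosyltransferase, measured -0.28 log2 with IAA in arf2-6 and -0.14 in the wild type. *UGT76E11* measured -0.57 log2 with IAA in arf2-6 (adjusted p = 0.14) and 0.09 in the wild type, and the interaction of -0.67 log2 (SE 0.30) was not called (adjusted p = 1). *UGT88A1* measured 9.61, 9.54 and 9.29 log2 in arf2-6_IAA and 9.58, 9.70 and 9.40 in WT_IAA, a difference of -0.08 log2 (adjusted p = 0.82).

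With IAA, 2 root hair markers and a sign of RNA length differed between the genotypes alongside these values. *EXPA7* (log2 -0.96, adjusted p = 0.018) and *EXPA18* (fitted -1.54, 1 of 3 arf2-6_IAA arrays at the lowest value, adjusted p = 0.0055) were lower in arf2-6 with IAA, while *PYK10* measured -0.16 (adjusted p = 0.40). So 2 of 3 root markers were called and 0 of 3 leaf markers, beside 8.79% of all probe sets. In controls *EXPA7* (-0.66 log2, adjusted p = 0.15) and *EXPA18* (-0.90 log2, adjusted p = 0.12) were lower too, but not called. The summed linear signal of the 3 root markers ranged from 5199 to 5816 in arf2-6_IAA and from 5597 to 6958 in WT_IAA, so the ranges overlapped. That sum is mostly *PYK10* (mean 12.36 log2 in arf2-6_IAA and 12.52 in WT_IAA), with *EXPA7* at 6.19 and 7.15. Signal at the 3′ end less that at the 5′ end was averaged over 3 pairs of *Arabidopsis* control probe sets. These pairs covered GAPDH and actin transcripts only, and most were for GAPDH. The average was -0.08 to -0.01 log2 in arf2-6_IAA and 0.04 to 0.11 in WT_IAA. In controls it was -0.07 to 0.11 in arf2-6_control and -0.06 to 0.05 in WT_control, so the genotypes overlapped there. The part of these markers and of RNA length in the genotype differences of the UGT genes was not tested.

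Of the UGT enzymes whose symbol has another form, 5 had a single-gene probe set and were outside the 47 members. *IAGLU* encodes a glucosyltransferase that makes the glucose ester of IAA. It measured 9.74, 9.42 and 9.52 log2 in arf2-6_IAA and 9.59, 9.51 and 9.68 in WT_IAA. The controls measured 8.21, 7.37 and 7.68 in arf2-6_control and 8.04, 7.03 and 7.43 in WT_control. It rose 3.49-fold in arf2-6 (log2 1.80, SE 0.25, adjusted p = 0.00079) and 4.26-fold in the wild type (log2 2.09, SE 0.25, adjusted p = 0.00023).

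The genotypes did not differ by a called amount for *IAGLU*, with -0.03 log2 under IAA (95% interval -0.58 to 0.51) and 0.25 in controls (95% interval -0.29 to 0.80). *GT72B1* (also named *UGT72B1*) measured -0.81 log2 with IAA in arf2-6 (adjusted p = 0.057) and -0.62 in the wild type (adjusted p = 0.16). The anthocyanin enzyme gene *UF3GT* and the sterol glucosyltransferase gene *SGT* were not called, and *AT5G54010* was at the lowest value throughout. The 3 probe sets listed with several genes were not called either, and no gene was named from them.

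Genes that make acceptors or UDP-sugars, or that act beside or against UGTs, were read from lists of which few genes had a single-gene probe set. Among 5 auxin-conjugating genes, all of the GH3 family of IAA-amido synthetases, *GH3.9* was at the lowest value throughout and 3 of 4 tested rose in each genotype (beside 3.75% of all probe sets in arf2-6 and 4.64% in the wild type). Of these, *GH3.3* measured 5.90 log2 in arf2-6 (SE 0.32, adjusted p = 7.6e-07) and 5.78 in the wild type (SE 0.32, adjusted p = 7.0e-07). The other two were *GH3.1* (at least 7.44-fold in arf2-6 and at least 6.55-fold in the wild type) and *WES1* (24.7-fold in arf2-6 and 19.7-fold in the wild type). *GH3.17* measured 0.10 log2 in arf2-6 and 0.03 in the wild type, and was not called.

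Family 1 β-glucosidases, the family of hydrolases that can remove such sugars, had 22 probe sets, of which 13 were at the lowest value throughout and 9 were tested. With IAA 2 of 9 were called lower in each genotype, beside 4.76% of all probe sets in arf2-6 and 3.76% in the wild type. *BGLU15*, a flavonol glycoside hydrolase, changed by -0.55 log2 in arf2-6 (adjusted p = 0.017) and -0.52 in the wild type (adjusted p = 0.021). *BGLU40* changed by a fitted -0.92 log2 in arf2-6 (adjusted p = 7.0e-04) and by -0.71 in the wild type (adjusted p = 0.0037). The arf2-6 value is not an exact size, because 2 arf2-6_IAA arrays were at the lowest value. Its p-value draws on those arrays and can be too small. Between genotypes with IAA, *BGLU42* was higher in arf2-6 (log2 0.54, adjusted p = 0.033) and *BGLU25* lower (-0.54, adjusted p = 0.025), beside 2.93% of all probe sets higher and 5.86% lower. The median over the 9 was -0.12 log2 for IAA in arf2-6 and -0.10 in the wild type.

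Of the 29 phenylpropanoid and flavonoid genes listed, 6 had a probe set and 4 were tested. With IAA 0 of 4 were called by limma in either genotype. *ALDH2C4* (*REF1*), whose enzyme makes sinapate and ferulate, was lower in arf2-6 with IAA, at 10.14 ± 0.15 log2 against 10.66 ± 0.29 in the wild type (SD, n = 3 each). The difference was -0.53 log2 (limma, SE 0.14, adjusted p = 0.038). *ALDH2C4* was the 1 of 4 tested genes called there, beside 8.79% of all probe sets. *USP*, a UDP-sugar pyrophosphorylase, was the 1 of 36 UDP-sugar genes with a probe set and measured -0.17 log2 with IAA in arf2-6 and -0.06 in the wild type, not called. *BSMT1*, the 1 measured gene of the other hormone inactivation list, was at the lowest value throughout, and 0 of 25 cytokinin synthesis and breakdown genes had a single-gene probe set.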

How the data were processed

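The authors deposited log2 signals, from 12 arrays of 22810 probe sets. Their summary and scaling methods are not given in the sources used here, and the deposited scaling was kept. Genes came from the platform annotation, with symbols updated through a gene table of TAIR10.1 (13513 probe sets with 1 gene). All 4 group means were fitted in a single linear model with limma 3.58.1 in R 4.3.3, with a mean-dependent variance prior and 8 residual degrees of freedom. Tests were two-sided. The 64 AFFX control probe sets were left out, as were probe sets with a mean at or below the 30% quantile. That quantile is the lowest value itself, so the filter removed exactly the 8531 probe sets at the lowest value throughout (37.5%) and left 14215. P-values were adjusted over these by Benjamini-Hochberg, and intervals are 95% moderated t intervals. All members called in any comparison are given array by array, along with at most 4 called genes of each list and some uncalled members chosen after their values were seen. The members and lists were chosen with earlier results of these data known. The fit was tested on simulated data. Other scalings, filters, priors, array subsets and a replicate block were tried. Sequences were not used here. Tables and plots were made in Python 3.11.15.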

Additional observations from a re-analysis of the deposited data

Results flagged for a closer look

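The fitted IAA effects on *UGT76D1* differed between the genotypes, with a limma interaction of -0.78 log2 (SE 0.12, adjusted p = 0.043). The 3 WT_IAA arrays were above the lowest deposited value, whereas 2 of the 3 arf2-6_IAA arrays and all 6 control arrays lay at it. The interaction was no longer called under 17 of its 18 alternatives. It is a fitted value only. Both control groups are at the lowest value, so neither its size nor its direction was measured, and a different response to IAA is not shown. Its SE and p-value draw on those groups and can be too small.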

How the results depend on the processing

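None of the 17 called differences of UGT members changed sign under the alternatives run for it. Those of *UGT76D1* and *UGT84A3* rest on groups wholly or mostly at the lowest value and could hardly change sign. Shares in brackets below are of all probe sets tested that were called in the same fit. The count for IAA in the wild type (4) became 2 with the dimmer 50% left out (8.38%), where *UGT76D1* and *UGT84A3* are not tested. It ranged from 3 to 5 with 1 array left out (5 without WT_control 3, 7.27%). For IAA in arf2-6 (3) it was 1 with no filter (3.76%). With 1 array left out it was 1 to 5 (5 without WT_control 3, 9.83%, and 1 without arf2-6_IAA 3, 5.42%). For genotype in controls (0) it was 0 to 4 with 1 array left out (4 without WT_control 3, 3.22%). Without WT_control 3 and arf2-6_control 2 together it was 1 (5.06%). For genotype under IAA (4) it was 2 with the dimmer 50% left out (9.72%), 7 with the IAA arrays alone (16%) and 8 without those 2 control arrays (15.4%). With 1 array left out it was 1 to 5. It was 1 without WT_IAA 2 (2.41%) or arf2-6_IAA 3 (2.6%), and 2 without arf2-6_IAA 1 (3.45%). The averaged genotype count (5) was 8 without the 2 control arrays (25.3%) and 4 to 9 with 1 array left out (9 without WT_control 3, 18.5%). The interaction count (1) was 0 under both other scalings, no filter, the dimmer 50% left out and no mean-dependent prior (at most 0.0985%). It was also 0 with the replicate block (0.0422%) and without the 2 control arrays (0.0213%). With 1 array left out it was 0 to 1 (0.0141% to 0.317%). The cause of these moves was not tested, other than where members were not tested. Whether replicate numbers pair the samples was not settled. Same-numbered pairs gave r from -0.50 to 0.49 (over 0.1 in 7 of 18), and 7 of 12 arrays correlated best with an array of their own number. With the replicate number as a block, *UGT78D1* in arf2-6 was at adjusted p = 0.056, and *UGT71B1* was called for genotype under IAA (0.037) and averaged (0.045). The lowest deposited value leaves 19 of 47 members unmeasured.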
